A study of Mus musculus with 9 samples.

Results

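The genes described here encode the cohesin ring and its regulators, together with CTCF: Smc1a, Smc3, Rad21, Stag1, Stag2, Nipbl, Wapl, Pds5a, Pds5b and Ctcf. An interaction was counted for one of these 10 genes when either of its 2 bins lay within 2 kb of any annotated transcript start of that gene (mm10, GENCODE M21). By this rule 36 of 36274 untreated H3K27ac interactions, 34 of 28210 H3K27ac interactions after IAA, 31 of 49630 CTCF interactions and 20 of 23630 RAD21 interactions belonged to them. MNase HiChIP was carried out in E14 mouse embryonic stem cells of the CTCF AID genotype, in which CTCF carries an auxin-inducible degron; every group, the untreated ones included, shares that genotype. The groups were H3K27ac without IAA (2 libraries), H3K27ac after 12 h of IAA, the auxin that triggers loss of the tagged protein (2 libraries), CTCF without IAA (2 libraries) and RAD21 without IAA (3 libraries). Each group is represented by 1 list pooled over its libraries, which leaves every value below without a replicate error, and tests of 2 lists compare those lists and not the conditions. The degron acts on CTCF protein and not on the gene. Neither the protein level nor CTCF or RAD21 contacts after IAA were analysed here.

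Cohesin is a ring built from SMC1A, SMC3 and the kleisin RAD21, to which STAG1 or STAG2 binds. NIPBL loads the ring and drives the extrusion of chromatin loops, whereas WAPL and the PDS5 proteins govern its release and the length of its stay on DNA. CTCF bound to its motif halts extruding cohesin in an orientation-dependent way, and the stalled rings anchor loops and domain borders in embryonic stem cells.

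The CTCF core motif was searched, on both strands and with at most 1 mismatch, in the anchor bins of the CTCF and RAD21 interactions. A match was found in 18 of the 39 different CTCF anchor bins of these genes (46.2%), against 41.7% of the 34038 anchor bins in the whole CTCF list and 5.15% of the same bins moved by 10000 bp. On the promoter side, 4 of 11 bins held a match, those of Smc3, Stag1, Stag2 and Pds5b. These sites are shown because they mark the promoters that were themselves CTCF anchors with a motif. Each line gives the GRCm38 position of the core and reads 5′ to 3′ on the strand of the motif, with the core in capitals.
Smc3 promoter bin, chr19:53599909-53599922, plus strand: gaaCCAGCAGGAGGCGCtct
Stag1 promoter bin, first match, chr9:100643573-100643586, plus strand: cggCCAGCAGAGGGCGGtcg
Stag1 promoter bin, second match, chr9:100643631-100643644, plus strand: atgCCACCAGATGGCGGgtt
Stag2 promoter bin, first match, chrX:42149223-42149236, plus strand: ccgCCGCTAGATGCCGCtgc
Stag2 promoter bin, second match, chrX:42149272-42149285, plus strand: cggCCGACAGATGGCGCctg
Pds5b promoter bin, chr5:150673693-150673706, plus strand: cggCCGGTAGGGGGCGCtga
The Pds5b match lay 46 bp upstream of the first protein-coding start and the Smc3 match 489 bp upstream of it. The Stag2 matches lay 94 and 45 bp upstream. Both Stag1 matches lay downstream of the first coding start at the main promoter, by 125 and 183 bp, in an exon annotated as UTR. All 6 were on the plus strand, which is also the strand of all 4 genes.

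Matches in partner bins are shown for the strongest CTCF partner of Smc3, Stag2, Pds5b and Ctcf, for the 695 kb partner of Pds5b and for the Stag1 partner at 123 kb. The Stag1 partner with the most CTCF and RAD21 contacts, the bin at the Nck1 start 97 kb upstream, held no match. The adjacent Nck1 start bin, 98 kb upstream, held a plus-strand match with 1 mismatch.
Smc3 partner 205 kb upstream, chr19:53394784-53394797, plus strand: cttCCACTAGGTGGCAGtca
Stag1 partner 123 kb upstream, chr9:100520758-100520771, plus strand: cttCCACCAGGTGGCGCtat
Stag2 partner 116 kb upstream, chrX:42033267-42033280, plus strand: tgaCCACCAGGTGGCAGcct
Pds5b partner at the N4bp2l2 start, first match, chr5:150665767-150665780, minus strand: cccCCACTACAGGGCGGgga
Pds5b partner at the N4bp2l2 start, second match, chr5:150665870-150665883, minus strand: catCCACCTGGGGGCGCcaa
Pds5b partner 695 kb downstream, chr5:151368770-151368783, minus strand: tcgGCGCCAGATGGCGCtac
Ctcf partner 14 kb upstream, chr8:105622566-105622579, plus strand: tcgCCACCAGGGGGCAGcag
The 2 matches at the N4bp2l2 start were on the minus strand, in an N4bp2l2 exon. Together with the plus-strand site at Pds5b they formed the only divergent pair among the 11 CTCF interactions of these genes with a single motif direction at each end. Another 3 of the 11 were convergent (the 267 kb partner of Stag1, the 382 and 695 kb partners of Pds5b) and 7 were tandem. In the whole CTCF list 66.7% of 14017 such interactions were convergent. The 11 pairs are not independent: 5 of the 7 tandem pairs and 1 of the 3 convergent ones share the Stag1 promoter bin, and the divergent and other convergent ones share that of Pds5b. The orientation of the remaining 20 interactions could not be read, because at least 1 bin held no match.

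RefSeq promoter sequences (GRCm38.p6, 250 bases before to 50 after the start) were found for 7 of the 10 genes; Rad21, Stag2 and Nipbl had none in the table used. GC content was taken over the 250 bases before the RefSeq start, cut to 213 bases for Pds5a and 162 for Pds5b, where an annotated start lies inside them. It ran from 56.8% (Smc1a) to 80.3% (Pds5a), against a median of 52.4% over the 250 bases of all 32851 promoters. Motifs were searched in the whole, uncut sequences. Pds5b was the only one of the 7 with a CTCF core match, which 3.85% of all promoters held. The YY1 letters AANATGGCG, searched on both strands, were present in 4 of 7 (Pds5b, Ctcf, Stag1 and Smc3) and in 2.38% of all promoters. The NRF1 motif, searched as GCGC on each side of 2 free bases, was present in 4 of 7 (Pds5a, Pds5b, Stag1 and Wapl) and in 6.23% of all. The SP letters GGGCGG, which can lie inside a CTCF core match, were present in 7 of 7 and in 35.7% of all, and CCAAT in 4 of 7 and 37.4%. None of the 7 held TATAAA (13.6% of all promoters), CACGTG (7.15%) or CCGGAAG (8.86%). A match is a run of letters and no evidence of binding. The promoters of Pds5b and Stag1 are printed because they were the member promoters with the most coverage in the CTCF list; capitals mark the CTCF core in Pds5b and the YY1 letters in Stag1.
Pds5b promoter, chr5:150673577-150673738, plus strand: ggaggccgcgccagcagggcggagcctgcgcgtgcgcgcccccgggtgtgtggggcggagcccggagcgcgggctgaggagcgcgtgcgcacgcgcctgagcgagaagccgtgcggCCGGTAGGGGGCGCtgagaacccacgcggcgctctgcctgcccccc
Stag1 promoter, chr9:100643198-100643447, plus strand: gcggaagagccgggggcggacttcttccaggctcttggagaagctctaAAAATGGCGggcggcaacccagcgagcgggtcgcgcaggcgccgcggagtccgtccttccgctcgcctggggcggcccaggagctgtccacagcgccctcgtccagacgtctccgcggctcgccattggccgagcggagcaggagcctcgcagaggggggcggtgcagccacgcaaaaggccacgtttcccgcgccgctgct

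Contacts below are deposited whole-number counts of ligated pairs for a bin pair. Bins were 2 kb wide for H3K27ac and 1 kb for CTCF and RAD21. The models behind the lists rested on 12551236 contacts for untreated H3K27ac, 14629323 after IAA, 2839756 for CTCF and 1517698 for RAD21. A listed pair had a deposited q-value of at most 0.05, and a pair absent from a list was not called at that depth, which does not show that contact was absent. As a check of the labelled cell type, all 8 of 8 embryonic stem cell genes (Pou5f1, Sox2, Nanog, Klf4, Zfp42, Esrrb, Tfcp2l1 and Dppa5a) had untreated H3K27ac interactions at their starts, and 0 of 8 genes of differentiated lineages did. After IAA, 1 of the latter 8, Gata4, had one.

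H3K27ac interactions were listed at 9 of the 10 genes before and 9 of 10 after IAA, against 36.3% and 32.9% of all 21951 protein-coding genes. CTCF interactions were listed at 8 of 10, against 35.2% of all coding genes, and RAD21 interactions at 7 of 10, against 24.6%. At a q of 0.01 or less, the CTCF pairs of these genes went from 31 to 19 and were listed at 6 of 10, without Nipbl and Pds5a (29.4% of coding genes); RAD21 pairs were then listed at 6 of 10, without Nipbl (19.4%). Stag1 had the most in each of the 4 lists, with 9, 7, 10 and 9 interactions. Nipbl had no H3K27ac interaction in either list, and Smc1a and Rad21 had none in the CTCF and RAD21 lists. Rad21 had 6 H3K27ac interactions in each list.

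**Figure D1:**
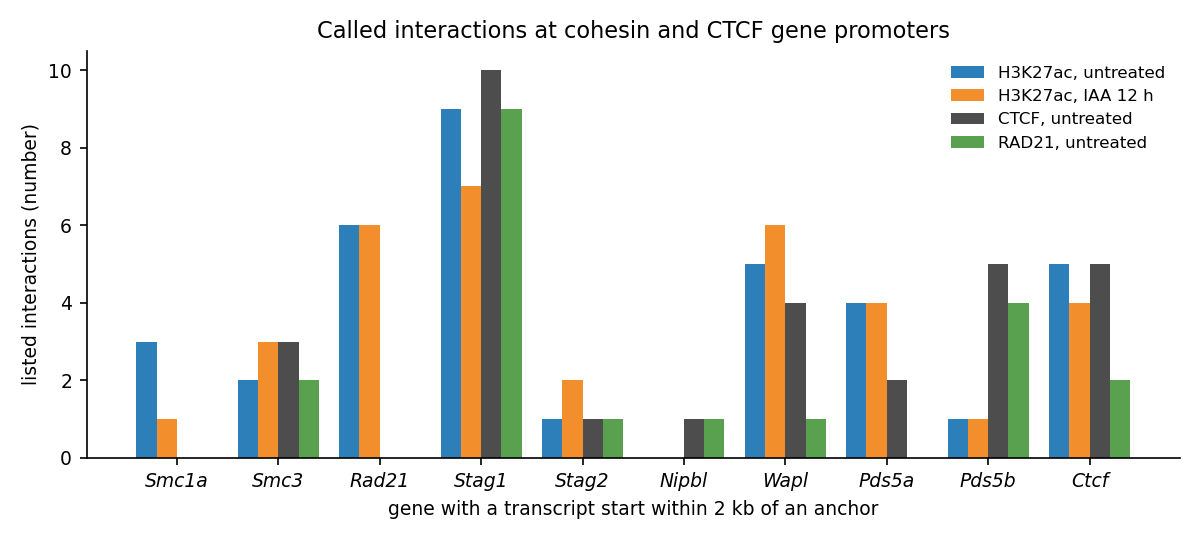
Bars give the number of listed interactions (y axis) with a bin within 2 kb of a transcript start of each gene (x axis) in the 4 pooled lists. Stag1 is highest in all 4 lists, Rad21 has 6 in both H3K27ac lists and none in the CTCF and RAD21 lists, and Nipbl has 1 CTCF and 1 RAD21 interaction only.

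Among the ring subunits, Smc1a (chrX:152016428-152062694, plus strand) had 3 untreated H3K27ac interactions and 1 after IAA. The one found in both lists joined its promoter to the start of Huwe1, a ubiquitin ligase gene 214 kb upstream, with 12 contacts untreated and 11 after IAA. Both of 2 adjacent bins at the start of Hsd17b10, a mitochondrial dehydrogenase gene, were listed untreated only, at 14 kb with 14 contacts and at 16 kb with 12 contacts. No pair within 1 bin of either was listed after IAA. A start of Ribc1 lies within 2 kb of the Smc1a start, so these contacts cannot be assigned to 1 of the 2 genes.

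Smc3 (chr19:53600398-53645833, plus strand), whose product pairs with SMC1A at the hinge of the ring, had the same strongest partner in both lists. The start of Smndc1, a splicing factor gene 210 kb upstream, had 20 contacts untreated and 18 after IAA, 14.6 and 13.1 times the contacts the model predicted. A bin 140 kb upstream, in exons of 4833407H14Rik and Mirt1, had 11 contacts and was listed untreated only. Listed after IAA only were the bin next to the Smndc1 start (208 kb, 11 contacts) and a pair from an internal Smc3 start to a bin 12 kb downstream (10 contacts). The CTCF list linked 2 adjacent promoter-side bins to a single partner bin near Smndc1, at spans of 205 and 206 kb, with 27 and 16 contacts, and the RAD21 list gave 8 and 10 contacts for these pairs. A further CTCF pair reached the Smndc1 start itself at 209 kb with 12 contacts. The partner bin of this last pair was also that of the strongest H3K27ac pair, but its promoter-side bin was the neighbouring one, so no pair was counted as the same.

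Rad21 (chr15:51962240-51991747, minus strand) encodes the kleisin that closes the ring. Its strongest H3K27ac partner, a bin 22 kb upstream in an exon of Gm48926, had 37 contacts untreated and 28 after IAA (log2 ratio -0.37 after scaling by all shared interactions, 95% counting interval -1.14 to 0.37). This was the highest untreated count at any of the 10 genes. The bin next to it, 20 kb upstream, had 16 and 13 contacts, and the start of Aard at 50 kb had 13 and 12. Of the 3 untreated-only pairs, the largest (19 contacts, 20 kb) linked the neighbouring promoter bin to the same Gm48926 bin and so lay within 1 bin of a pair listed after IAA. The other 2 had 15 contacts at 6 kb and 10 contacts at 32 kb. After IAA only, 10 contacts were listed to an exon of Aard at 54 kb, 9 to the Utp23 start 114 kb downstream and 9 to a bin 30 kb upstream. All 3 shared Rad21 interactions had fewer contacts after IAA, and each counting interval included 0.

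Stag1 (chr9:100597798-100959375, plus strand) encodes one of the alternative STAG subunits, and its annotated starts include those at its main promoter and at a site farther upstream. Its H3K27ac interactions all ran upstream of their promoter bin. Some from the main promoter reached introns of Stag1 that lie downstream of the farther start. A bin outside annotated genes 62 kb upstream had the most contacts in both lists, 22 untreated and 21 after IAA. The start of Nck1, an adaptor protein gene, was joined through 2 adjacent bins: at 96 kb the contacts were 21 and 13 (log2 ratio -0.66, interval -1.78 to 0.40), and at 98 kb they were 11 and 12 (0.15, interval -1.15 to 1.48). The 96 kb pair had the lowest ratio of all shared interactions of the 10 genes, while its neighbour was above 0. Of the 4 untreated-only pairs, 12 contacts each were listed to the start of Slc35g2, a solute carrier family gene, at 72 kb and to an intron of Stag1 at 36 kb, and 10 and 8 contacts at 122 and 74 kb. The 36 kb partner was adjacent to that of a shared pair at 38 kb, with 15 contacts untreated and 10 after IAA. Listed after IAA only were a pair of 11 contacts from the upstream start at 16 kb and one of 9 contacts at 36 kb. The latter joined the neighbouring promoter bin to the partner bin of the shared 38 kb pair.

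The CTCF list held 10 and the RAD21 list 9 Stag1 interactions, more than at 96.5% and 98.7% of coding genes. The Nck1 start led both, with 44 CTCF contacts and 28 RAD21 contacts at 97 kb. In second place were the adjacent Nck1 bin at 98 kb in the CTCF list (29 contacts; 11 in the RAD21 list) and a Nck1 intron at 123 kb in the RAD21 list (25 contacts; 22 in the CTCF list). Of the 9 untreated H3K27ac pairs of Stag1, 4 coincided with a CTCF pair (both Nck1 start bins, the Slc35g2 start and the Nck1 intron). The 2 at the Nck1 start were listed after IAA, and the other 2 were not.

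Stag2 (chrX:42149317-42277185, plus strand), the alternative to Stag1, had 1 untreated H3K27ac interaction. It reached the start of Xiap, an inhibitor of apoptosis gene 80 kb upstream, with 12 contacts untreated and 8 after IAA. After IAA the next promoter bin was also listed with the Xiap bin, with 11 contacts. Its only CTCF and RAD21 interaction joined the promoter to a bin 116 kb upstream, outside annotated genes, with 17 and 13 contacts. Each end of that pair held CTCF core matches in the same direction, shown above.

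Nipbl (chr15:8290617-8444463, minus strand), the loader gene, had no H3K27ac interaction in either list. Its 1 CTCF interaction, 11 contacts with a bin 132 kb upstream, was also its 1 RAD21 interaction, with 7 contacts. Its promoter-side bin lay 538 bp from the start, and neither end held a core match.

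Wapl (chr14:34673928-34747983, plus strand), the release factor gene, had the strongest H3K27ac contact after IAA. The bin 12 kb upstream, in an exon of Gm49024, had 35 contacts untreated and 43 after IAA (log2 ratio 0.33, interval -0.35 to 1.01). The same bin and the next promoter bin had 24 and 22 contacts (log2 ratio -0.10), and a bin 8 kb upstream had 20 in both lists. The strongest untreated-only pair (14 contacts, 10 kb) and the strongest IAA-only pair (24 contacts, 10 kb) both lay within 1 bin of a pair in the other list. A bin 94 kb downstream had 10 contacts untreated only. Bins 310 and 170 kb upstream, the latter at the start of the BMP receptor gene Bmpr1a, had 10 and 8 contacts after IAA only. The CTCF list held 4 Wapl pairs, the strongest with a bin 52 kb upstream (15 contacts), which was the only RAD21 pair (21 contacts); the CTCF pair with the next most contacts, 11, ran 96 kb downstream. None coincided with an H3K27ac pair. The 96 kb CTCF partner lay in the partner bin of the untreated H3K27ac pair 94 kb downstream, but its promoter-side bin was the neighbouring one.

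Pds5a (chr5:65605721-65698273, minus strand) and Pds5b (chr5:150673739-150810690, plus strand) encode the paired cohesin regulators. At Pds5a, 3 of the 4 untreated pairs had 11 contacts each. After IAA the one 26 kb upstream had 15 contacts (log2 ratio 0.48, interval -0.74 to 1.74). The 2 pairs with the start of N4bp2 had 11 at 68 kb (0.03) and 9 at 66 kb (-0.26, interval -1.71 to 1.15). A pair of 9 contacts with a bin holding starts of Smim14 and Ube2k, 160 kb downstream, was listed untreated only, and one of 9 contacts with the N4bp2 start at 64 kb after IAA only. Its 2 CTCF pairs had 9 contacts each, at 295 kb in a Lias intron and 170 kb in a Smim14 intron, and it had no RAD21 pair.

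Pds5b had a single H3K27ac pair, to the start of N4bp2l2 8 kb upstream. It had 22 contacts untreated and 33 after IAA, the highest ratio among the shared interactions of these genes (log2 ratio 0.61, interval -0.21 to 1.46, unadjusted p = 0.138 in the exact binomial test). The same pair had 83 CTCF contacts and 25 RAD21 contacts, the most of any CTCF pair here, though at this short span the model predicted many: the counts were 3.90 and 3.84 times the prediction. The pair 695 kb downstream, in an intron of Gm42906, had 30 CTCF and 20 RAD21 contacts, 19.0 and 14.5 times the prediction, and was not listed for H3K27ac.

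Ctcf itself (chr8:105636568-105682922, plus strand) had 5 untreated H3K27ac pairs and 4 after IAA, and 1 in both. The shared pair joined its promoter to a bin 14 kb upstream in a UTR of Ripor1, with 18 contacts untreated and 21 after IAA (log2 ratio 0.25, interval -0.73 to 1.25). That pair also had the most contacts of this gene in the CTCF and RAD21 lists, 31 and 18, next to 29 and 17 for the start of Atp6v0d1, a proton pump subunit gene 70 kb upstream. Against the prediction the order was the reverse: the 14 kb pair had 2.04 and 3.86 times the predicted CTCF and RAD21 contacts, and the Atp6v0d1 pair 4.15 and 5.19 times. The strongest untreated-only pair reached the start of Nutf2, a nuclear import factor gene 224 kb downstream, with 14 contacts, 10.4 times the prediction. The CTCF list gave 8 contacts for it, and no pair within 1 bin was listed after IAA. Bins 48 and 50 kb downstream, at and next to the start of Carmil2, had 9 contacts each untreated only. The untreated pair with the Ripor1 start at 32 kb (10 contacts) and the IAA pair at 30 kb (15 contacts) were adjacent. After IAA only, 15 contacts were also listed between an internal Ctcf start and a bin 8 kb downstream of it. A further IAA-only pair, with 13 contacts at 12 kb, joined the neighbouring promoter bin to the Ripor1 UTR bin of the shared pair. Starts of Agrp and Gm5914 lie within 2 kb of the Ctcf starts, so assignment to Ctcf alone is not possible; the same holds for AC137853.1 at Smc3, Gm37564 at Stag2 and 5830448L01Rik at Wapl.

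**Figure D2:**
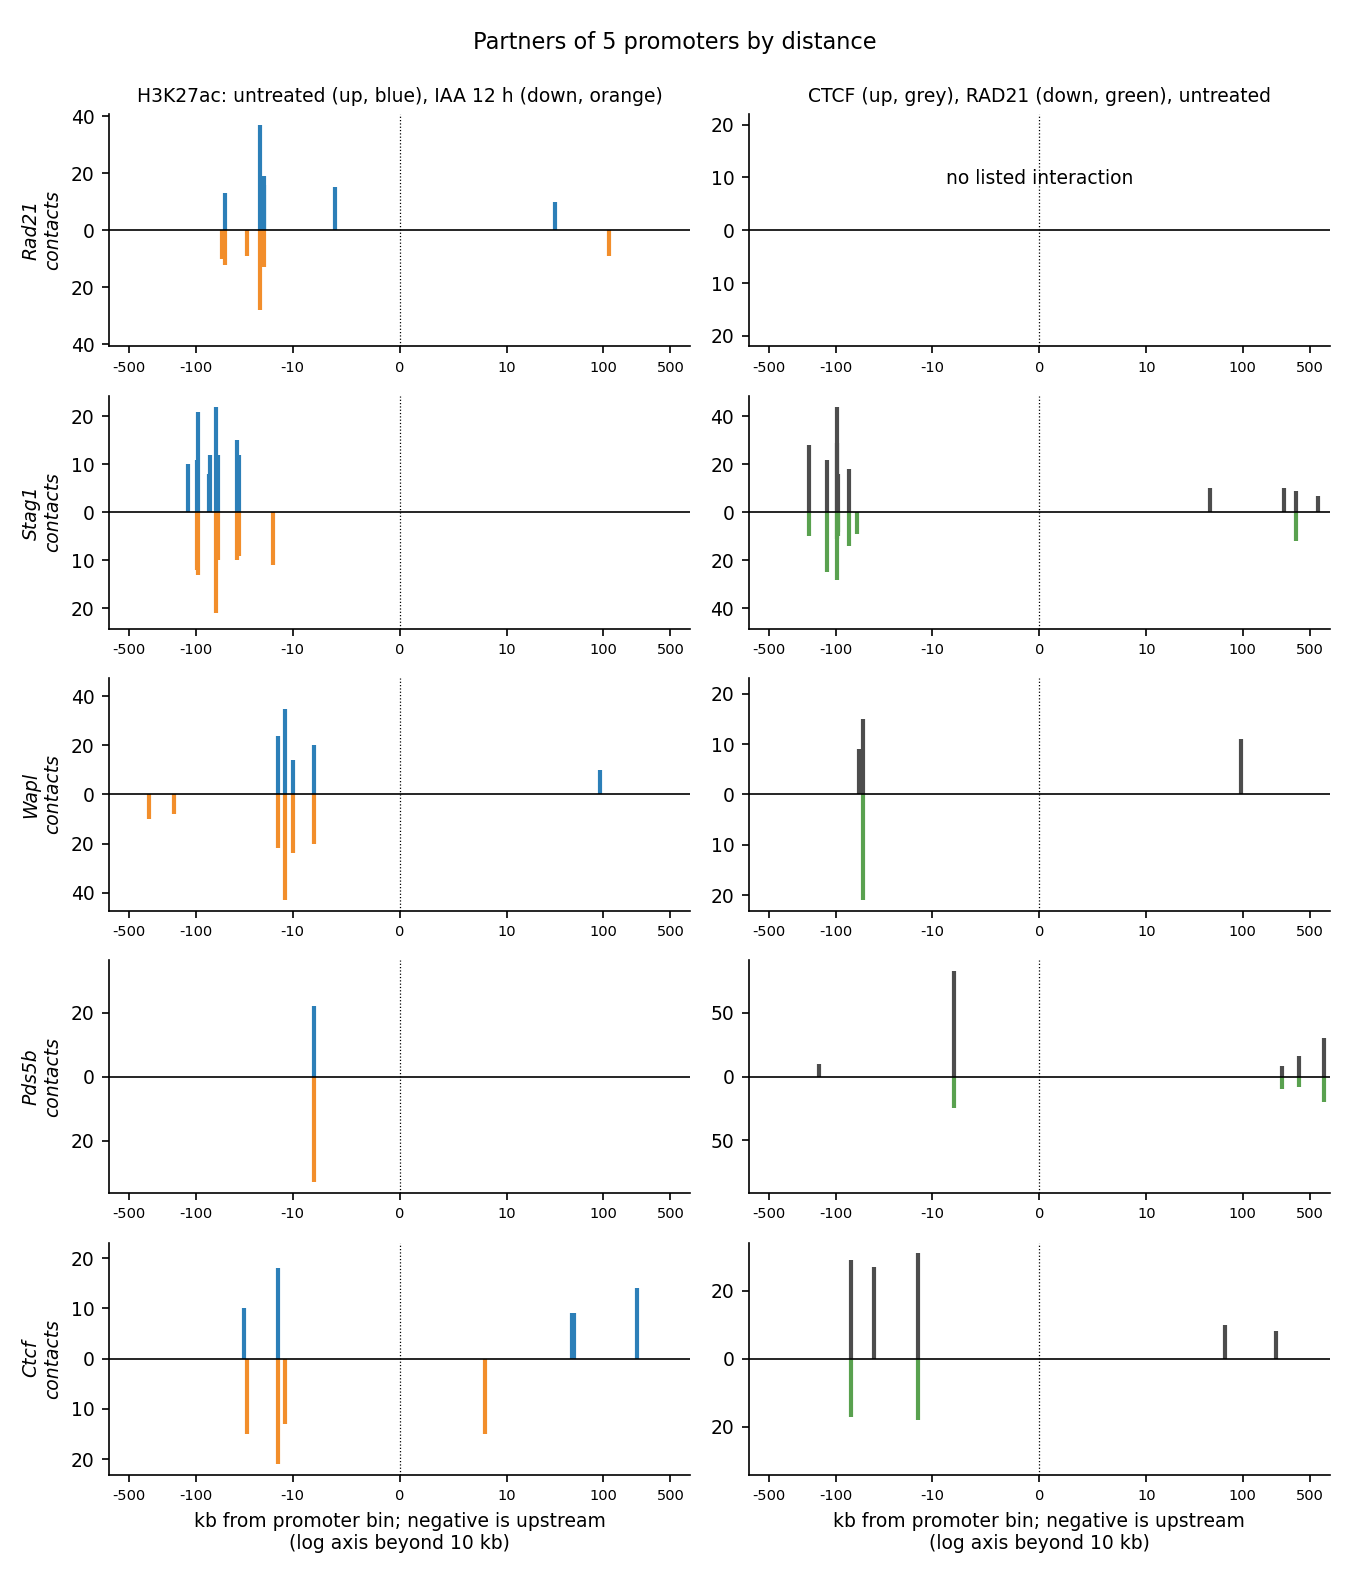
Vertical lines give contacts (y axis) of each listed partner by its distance in kb from the promoter bin (x axis, negative upstream, logarithmic beyond 10 kb) for 5 genes. On the left, untreated H3K27ac points up and IAA down; on the right, CTCF points up and RAD21 down. Partners 22 kb upstream of Rad21 and 12 kb upstream of Wapl are high in both H3K27ac lists, and Ctcf has its 224 kb downstream partner in the untreated list only.

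Relative to the promoter bin of each pair, upstream partners made up 30 of the 36 untreated pairs (83.3%) and 31 of the 34 pairs after IAA (91.2%). Over all coding genes the shares were 55.3% and 57.6%. Of the 30 upstream pairs 19 were called again after IAA, against 44.5% over all coding genes, and of the 6 downstream pairs 0 were, against 39.1%. These 6 belonged to Rad21 (1), Wapl (1), Pds5a (1) and Ctcf (3) and had 9 to 14 contacts, and of downstream pairs with so few contacts 27.6% were called again over all coding genes. Whether the sides differ at these promoters was not tested. A coding-gene start lay in both bins of 16 of 36 untreated pairs (44.4%) and 13 of 34 pairs after IAA (38.2%), against 24.7% of pairs at coding starts in each list. Several pairs share a promoter bin or lie in adjacent bins, so the pairs are not independent.

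The question the design puts to these promoters is which of their H3K27ac contacts were still called, and with how many contacts, after 12 h of IAA. Of the 36 untreated pairs, 19 were called again (52.8%, Wilson 95% interval 37.0 to 68.0), against 42.5% (41.9 to 43.1) of the 24256 pairs at all coding starts. Another 4 of the 17 untreated-only pairs lay within 1 bin of a pair listed after IAA, and 7 of the 15 IAA-only pairs lay within 1 bin of an untreated one. The untreated-only pairs had 8 to 19 contacts (median 11) and the shared pairs 11 to 37 (median 16.0). With 15 contacts or more, 11 of 13 pairs were called again, against 65.0% at all coding starts; with fewer, 8 of 23 were, against 26.1%. Among untreated pairs, a smaller share of the weak ones was thus called again, here and at coding genes at large.

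In the 19 shared pairs, 0 had a changed number of contacts at an adjusted p under 0.05 (exact two-sided binomial test, Benjamini-Hochberg over 15551 shared pairs), against 0.135% of all shared pairs (15 higher and 6 lower; 6 and 54 when scaled by model contacts). No member pair had an unadjusted p under 0.05 either (0 of 19), against 4.41% of all shared pairs, and every adjusted p of these 19 was 1.00. The ratios ran from -0.66 to 0.61 with a median of -0.10, 12 below and 7 above 0. Over all shared pairs the median was 0.03, the SD 0.43 and 46.2% were below 0. Summed over the 19 pairs, contacts were 343 untreated and 330 after IAA (log2 ratio -0.03, 95% counting interval -0.25 to 0.20). Scaled by model contacts, which moves every shared pair of the lists by -0.25, the sum was at -0.28 (-0.50 to -0.05), an interval without 0, and 15 pairs were below and 4 above 0.

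**Figure D3:**
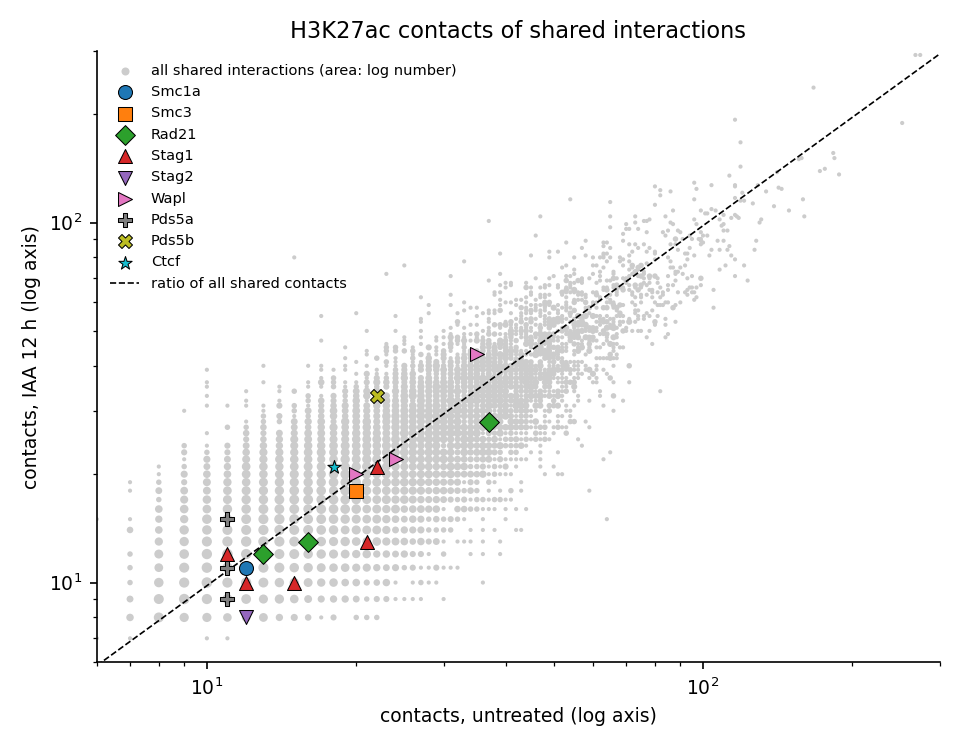
Each symbol is a shared H3K27ac pair of one of the genes, with untreated contacts on the x axis and contacts after IAA on the y axis (both logarithmic); grey dots are all 15551 shared pairs, larger where more pairs coincide, and the dashed line is the ratio of their totals. The 19 pairs lie on both sides of the line within the grey cloud, Pds5b (22 and 33) above it and the Stag1 pair with Nck1 (21 and 13) below it.

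Per promoter, 0 of the 9 genes with a shared pair had a changed sum at an adjusted p under 0.05 (exact binomial test, Benjamini-Hochberg over 5076 coding genes), against 0.296% of those genes (8 higher and 7 lower; 5 and 274 when scaled by model contacts), and 0 of 9 had an unadjusted p under 0.05. These sums cover only pairs called in both lists, so a pair no longer called after IAA could not enter the test. The sums ran from 81 and 66 contacts at Stag1 (log2 ratio -0.27, interval -0.76 to 0.22) and 79 and 85 at Wapl (0.13, -0.32 to 0.60) down to 12 and 8 at Stag2 (-0.56, -2.05 to 0.86). Rad21 had 66 and 53 (-0.29, -0.84 to 0.26), and Pds5a 33 and 35 (0.11, -0.61 to 0.85). All 5 ring and STAG genes were below 0 and the 4 others above it, but every interval included 0. Whether these groups differ was not tested, and Smc1a, Smc3, Stag2, Pds5b and Ctcf each had only 1 shared pair. Among the 5, contacts over all listed pairs were higher after IAA at Smc3 (31 and 39) and Stag2 (12 and 19). At Smc1a (38 and 11), Rad21 (110 and 81) and Stag1 (123 and 86) they were lower. With the lists scaled by the contacts in the models instead, all ratios moved by -0.25: Wapl (-0.12) and Pds5a (-0.14) then fell below 0, Ctcf was at 0.00 and Pds5b at 0.36.

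**Figure D4:**
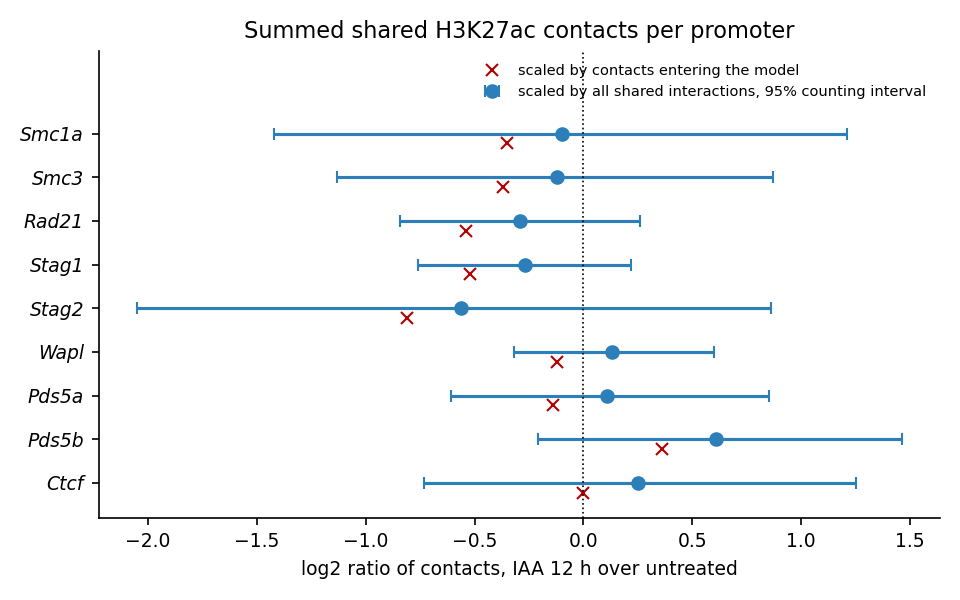
Points give the log2 ratio of summed shared H3K27ac contacts (IAA over untreated, x axis) for each gene with a shared pair (y axis), scaled by all shared pairs, with 95% counting intervals; crosses give the ratio scaled by the contacts in the models. All 9 intervals include 0, from Stag2 (-0.56) to Pds5b (0.61).

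Coverage of the promoter bins themselves, a deposited whole-number value per bin, could be compared where a bin was an anchor in both H3K27ac lists. Over 16828 such bins the median log2 difference in coverage was 0.20 (SD 0.18), higher in the IAA list, which also rested on more contacts. Of the 11 member bins, 6 lay above that median. Pds5b went from 1046 to 1635 (log2 0.64), Ctcf from 5936 to 7800 (0.39), Rad21 from 5790 to 6020 (0.06) and Smc1a from 2606 to 2678 (0.04). Pds5b, with the highest ratio of contacts, also had the largest log2 difference in coverage and the lowest coverage of the 11 in both lists; whether the 2 are related was not tested. Stag1 had the highest untreated bin coverage (6449), above 97.2% of H3K27ac anchor bins.

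**Figure D5:**
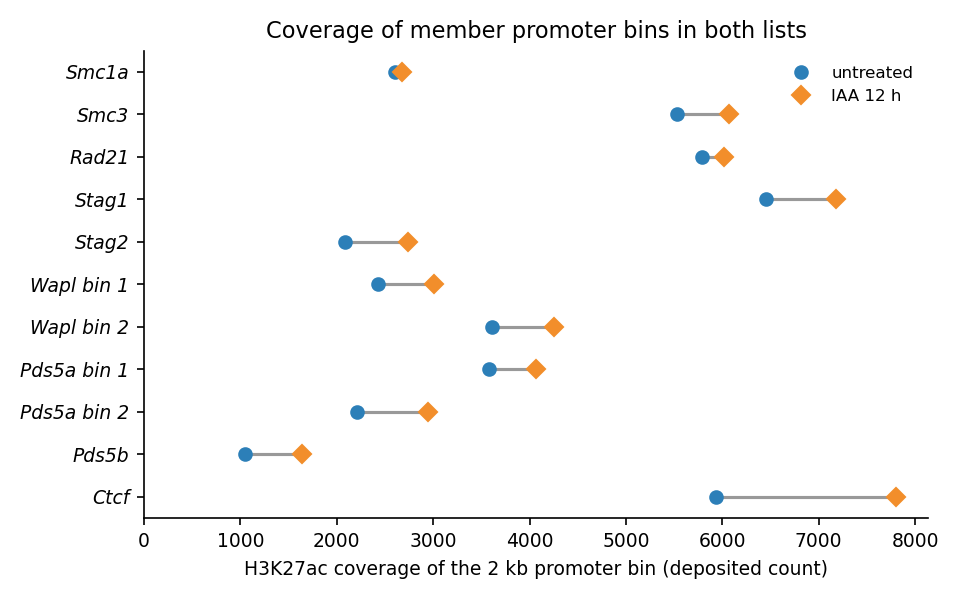
For each of the 11 promoter bins in both H3K27ac lists (y axis), a circle gives the untreated and a diamond the IAA coverage (x axis, deposited count per 2 kb bin). All 11 are higher in the IAA list, least for Smc1a (2606 and 2678), and Ctcf reaches the highest value (7800).

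The CTCF and RAD21 lists had many pairs in common at these promoters. Of the 20 RAD21 pairs, 18 had a CTCF interaction in exactly the same bins (90.0%, against 72.2% of the whole RAD21 list), and 18 of the 31 CTCF pairs were RAD21 pairs (58.1%, against 34.4%). Most of the 18 share the Stag1 or the Pds5b promoter bin, so they are not independent, and the overlap was not tested. The CTCF pairs had 7 to 83 contacts (median 15) and spanned 8 to 695 kb (median 123 kb), whereas the untreated H3K27ac pairs spanned 6 to 224 kb (median 49.0 kb). In 2 kb bins, 7 of the 36 untreated H3K27ac pairs coincided with a CTCF pair (19.4%, against 7.12% at all coding starts), namely 4 of Stag1, 2 of Ctcf and 1 of Pds5b. Also 7 of the 36 coincided with a RAD21 pair (19.4%, against 5.94%). Most of these came from the single Stag1 promoter bin and the others from Ctcf and Pds5b. After IAA 4 of the 7 pairs with a CTCF counterpart were called again, and 15 of the 29 without one, against 35.9% and 43.0% of such pairs at all coding starts. For RAD21 the counts were 5 of 7 and 14 of 29, against 42.6% and 42.5%. The difference between these classes was not tested.

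Other genes of the pathway are given as counts, with calls made under scaling by all shared pairs. Over all 21951 coding genes 36.3% had an untreated H3K27ac interaction. Of the 5076 coding genes tested, 0.296% were called in either direction. Of 8 cohesin partners and regulators (Mau2, Esco1, Esco2, Hdac8, Cdca5, Sgo1, Espl1 and Pttg1), 7 had untreated H3K27ac interactions and 6 had shared ones. None of the 6 changed in the same per-gene test (0 higher, 0 lower; median log2 ratio -0.19, range -0.74 to 0.44). Cdca5, which encodes sororin, the protector of cohesion, had 217 and 151 contacts (-0.49, adjusted p = 0.153 by the exact binomial test). Of 8 condensin genes 7 had untreated interactions and 5 were tested, with 0 called (median -0.38, range -0.88 to 0.15). The 4 other factors of promoter contacts (Yy1, Ldb1, Maz and Zfp143) all had interactions, with 0 of 4 called (median -0.13), and of 2 Mediator genes 1 could be tested and was not called (0.06). Of 5 germ line counterparts 2 had untreated interactions and none had a shared one. Of the 8 embryonic stem cell genes, 1 was called lower, Dppa5a, at a log2 ratio of -0.32 (adjusted p = 0.0382, exact binomial test). Among all coding genes tested, 7 were called lower with this scaling and 274 when scaled by model contacts.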

How the data were processed

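MNase HiChIP was measured in 9 libraries, and each of the 4 groups has 1 deposited interaction list. Per the labels, all libraries of a group cite the same list, so lists are pooled. Per the submitters' processing notes, Trim Galore, BWA, MACS2 and deepTools were used with build mm10; their roles, versions and settings are not given in the sources used here. The names of the lists cited in the labels refer to FitHiC and a q of 0.05; the caller's version and other settings are not given in the sources used here, and the column layout is that of FitHiChIP. Contacts and bin coverage are whole-number counts as deposited, not normalised by the authors. Per the file headers, each row also holds a predicted contact score, a contact probability (a fraction), a p-value, which was not used here, and a q-value from the authors' model.

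From these files, pairs were assigned to genes by any transcript start within 2 kb, and a pair was shared when the same bins were in both H3K27ac lists. The 2 counts of a shared pair were compared by an exact binomial test (two-sided) against the split of all shared contacts, with Benjamini-Hochberg adjustment over all shared pairs or all coding genes with one. Log2 ratios use the same scaling, with 95% Clopper-Pearson intervals. Shares have Wilson intervals. Both express counting error alone, and PCR reads that carry no molecular identifier need not be separate molecules. Medians of 13 to 14 contacts per H3K27ac pair limit the precision. The members and gene lists were chosen with earlier results of these data known. Pairs named are, per gene, those with most contacts in each list, the largest rise and fall with at least 20 contacts over both lists, the strongest pairs listed once, and the top 2 CTCF and RAD21 pairs. With 3 or fewer pairs, all are named. Named beyond this rule, after their values were seen, were the weaker pairs listed once at Rad21, Stag1, Wapl and Ctcf, the weaker shared pairs at Rad21 and Wapl, and the convergent CTCF pairs. So was the shared Stag1 pair at 38 kb. The test was checked on simulated data. Alternatives changed the window, q, minimum contacts, bin tolerance, scaling and threshold. Python 3.11.15, pandas 2.3.3, numpy 2.4.6, scipy 1.17.1 and pysam 0.24.0 were used.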

Additional observations from a re-analysis of the deposited data

How the results depend on the processing

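The share of untreated pairs called again was 52.8% and lay between 51.4% and 63.9% under 6 alternatives, inside its interval. The summed log2 ratio of -0.03 became -0.28 when the lists were scaled by model contacts, which is below its counting interval, with an interval of its own (-0.50 to -0.05) that excluded 0; under the other 5 alternatives it lay between -0.10 and 0.02. The number of changed pairs and of changed promoters was 0 under each alternative run (3 and 2). Over all coding genes the promoters called went from 15 to 279 when scaled by model contacts and to 25 within 5 kb. The 31 CTCF pairs became 19 at q of 0.01 or less, and 28 and 42 with the other windows. The 20 RAD21 pairs became 14 to 23. The 18 alternative ratios of single promoters stayed inside their counting intervals, though scaling by model contacts put Wapl and Pds5a below 0. No paired analysis was possible because each list is pooled over its libraries; for the same reason leaving out each replicate was not run. With 8 to 43 contacts per H3K27ac pair, counting intervals of a promoter were as wide as -2.05 to 0.86 (Stag2).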
